A study of Capra hircus with 9 samples.

Results

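The 200 rows described here are the most counted of the goat uterus count table's rows that are typed ncRNA and have a locus identifier (LOC) in place of a gene symbol. They were chosen by adding each row's raw counts over the 9 libraries and keeping the 200 highest of 4706 such rows, in a table of 25671 rows. The table's own descriptions likened most of them to known genes or to pseudogenes of such genes. Only 77 of the 200 were described as uncharacterized, while 46 were described as ribosomal protein copies, 18 as immunoglobulin segments, 7 as class I, interferon-induced or complement genes or pseudogenes, 1 as a T-cell receptor segment and 51 as other protein-like genes or pseudogenes. In a gene table of the goat assembly ARS1.2, 166 of the 200 identifiers were found: 89 were pseudogenes, 56 long noncoding RNAs (lncRNAs), 10 protein-coding genes and 11 immunoglobulin V segments or C regions. The rows are therefore called unnamed ncRNA-typed rows here, and lncRNA is used only where ARS1.2 gives that biotype.

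Long noncoding RNAs are transcripts without a long conserved reading frame, and many are spliced and polyadenylated like messenger RNAs. Processed pseudogenes are copies of messenger RNAs inserted elsewhere in the genome, and those of ribosomal proteins are the most common kind in mammals because the parent messages are so abundant. Reads from a parent message can align to such a copy. Immunoglobulin genes are annotated as separate variable and constant segments that are joined only in B cells and plasma cells, so annotations often do not give them a coding messenger RNA. In the ruminant uterus, interferon tau from the elongating conceptus induces a large set of interferon-stimulated genes before attachment, and plasma cells in the lining supply antibody to its secretions.

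The libraries came from Liaoning Cashmere goats on days 6, 16 and 19 of the period that the labels call peri-implantation, with 3 libraries per day and no other treatment, genotype or age given; the event from which days are counted is not stated, and the design text words the days as ages. The labels name the tissue as uterus in one field, endometrial epithelium in the title and testis in the treatment text. Marker genes for muscle, stroma and epithelium were present in every library, with summed levels of 10992 to 51683, 19192 to 33355 and 645 to 1468 CPM (counts scaled to TMM-adjusted library sizes), while 12 testis germ cell genes, of which 9 had rows, summed to 0.389 to 3.07 CPM. The labels do not say whether the 3 libraries of a day stand for 3 animals, and the p-values below therefore reflect sample-to-sample spread that may be technical.

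The libraries held 8712751 to 11074693 counts and 18530 to 19243 detected rows each. Replicate 1 of days 16 and 19 stood apart. At day 16 it held most of the immunoglobulin counts, and at day 19 it was below both other libraries for 138 of the 200 rows and above both for 43, whereas among all 16098 genes tested it was below both for 44.2% and above both for 43.9%. Many results that rest on either library are given with and without it. Day 6 replicate 1 differed in its tissue markers. Its smooth muscle sum was 10992 CPM beside 38800.8 and 31300.5 in replicates 2 and 3, and the effect on comparisons with day 6 was not tested. In whole tissue, fewer cells of a type and less RNA per cell cannot be told apart.

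The summed counts, which chose the rows and are given as a description, fell off steeply. The highest row, LOC102168701, summed to 150061 counts and the last, LOC106501902, to 1125, a 133-fold range with a median of 2756. The 10 highest rows held 43.4% of the counts of all 200 and the 20 highest 55.3%. The 200 together held 81.2% of the counts of all 4706 unnamed ncRNA-typed rows and 1.58% of all counts in the table. Sums were not divided by transcript length, so this order is one of counts and not of levels per length.

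**Figure D1:**
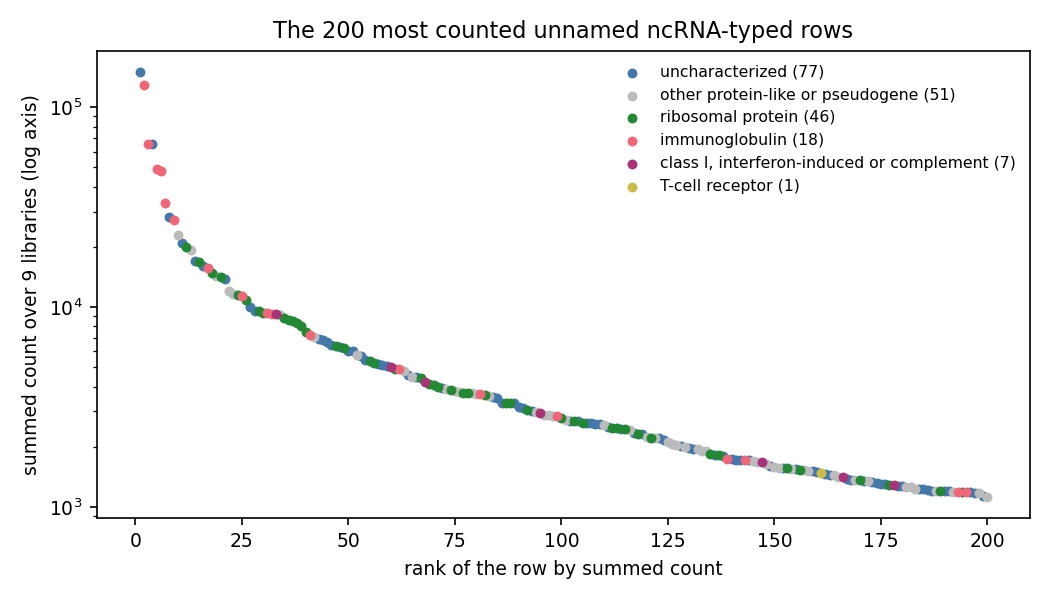
Summed raw count of each of the 200 rows over the 9 libraries (log axis) against its rank, coloured by the table's description. The sums run from 150061 at rank 1 to 1125 at rank 200, and the points of the 9 highest rows are all immunoglobulin or uncharacterized rows.

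The 12 highest rows were of mixed kinds. Uncharacterized rows took ranks 1 (LOC102168701), 4 (LOC102168611), 8 (LOC102169084) and 11 (LOC106503411). Immunoglobulin rows took ranks 2, 3, 5, 6, 7 and 9. Rank 10 was LOC102168412, described as similar to the cap-binding translation factor eIF4E, and rank 12 was LOC102178712, a copy of the large-subunit ribosomal protein gene RPL32. By description, the uncharacterized rows held 36.4% of the counts of the 200, immunoglobulin rows 29.6%, ribosomal protein rows 18.1%, other protein-like rows 13.9% and the class I, interferon-induced or complement rows 1.81%.

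The threshold fell in a dense part of the distribution. Just inside it were LOC102186488, a RHOA pseudogene, with 1166 counts, the lncRNA LOC106503669 with 1133 and LOC106501902, an ANKRD11 pseudogene, with 1125. Just outside were LOC102191401, a GDI2 pseudogene, with 1122, the uncharacterized LOC102178490 with 1119 and LOC102181405, a copy of RPS15A, with 1116. Because a sum over libraries admits a row that is high in a single one, the share of each row's counts in its highest library was computed. That share had a median of 18.3%, and it passed 50% in 17 rows, of which 14 were immunoglobulin rows.

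The share of each library's counts held by the 200 rows was 1.34%, 1.07% and 0.927% at day 6, 4.05%, 1.40% and 1.39% at day 16, and 1.02%, 1.68% and 1.46% at day 19. The means were 1.11% ± 0.208 (SD, n = 3), 2.28% ± 1.54 and 1.39% ± 0.337. Day 16 replicate 1 alone stood far above the other 8 libraries, and without it the day 16 mean was 1.39%. With the 18 immunoglobulin rows left out, the shares were 0.956% ± 0.0323 (SD, n = 3) at day 6, 1.07% ± 0.0420 at day 16 and 1.29% ± 0.269 at day 19, and the 3 libraries of day 16 lay above all 3 of day 6. The share held by uncharacterized rows alone was 0.476% ± 0.0307 (SD, n = 3) at day 6, 0.564% ± 0.0400 at day 16 and 0.674% ± 0.124 at day 19.

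**Figure D2:**
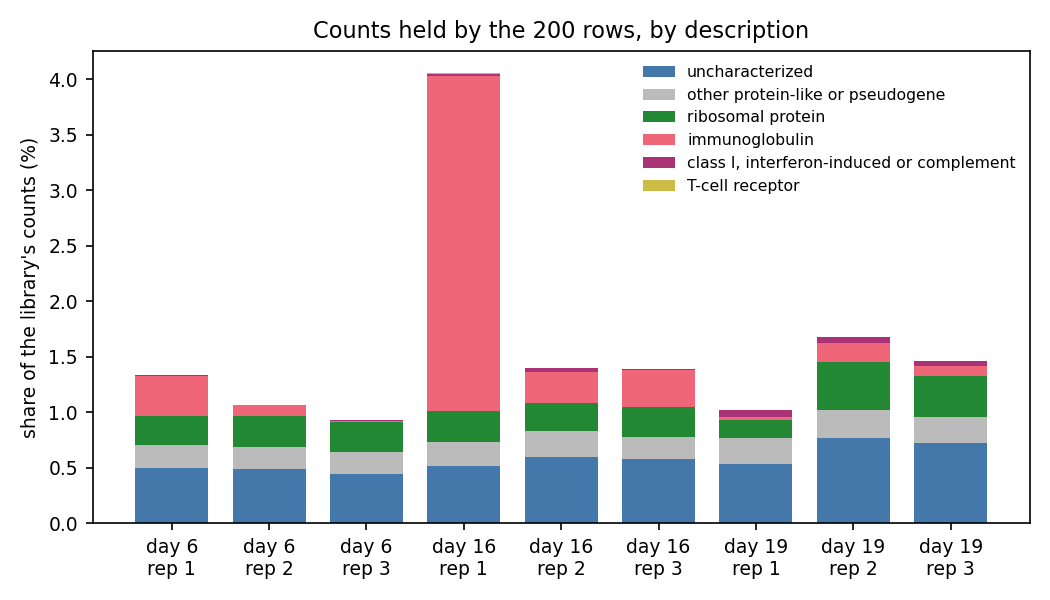
Stacked bars give the percentage of each library's counts held by the 200 rows, split by description, for the 3 replicates of each day. Day 16 replicate 1 reaches 4.05%, of which the immunoglobulin rows make 3.02%, while the other 8 libraries lie between 0.927% and 1.68%.

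All 200 rows passed the filter on low counts. At day 16 against day 6, 18 of them were called at an adjusted p under 0.05 in edgeR's quasi-likelihood test, which is 9% beside 8.86% of all genes tested. Of these, 16 were higher (background 5.12%) and 2 lower (background 3.74%). At day 19 against day 6, 41 were called, which is 20.5% beside a background of 22.9%, with 31 higher (background 12.7%) and 10 lower (10.2%). Between days 16 and 19, 2 rows were called, 1% beside a background of 1.20%, and both were higher (background 0.516%). By edgeR 0 were lower there (background 0.683%), where 26 were lower at an unadjusted p under 0.05 and DESeq2 called 21 higher (background 5.43%) and 8 lower (4.66%), or 29 in all (10.1%). The other comparisons had 25 calls (background 12.4%) and 57 calls (27.0%) by DESeq2. DESeq2 gave an adjusted p for 192 of the 200 rows, and the remaining rows could not be called by it. The edgeR shares were near the background in each comparison. The median log2 change was 0.11, 0.33 and 0.18 for the 200 rows in these 3 comparisons, beside 0.00, 0.02 and 0.01 for all genes tested.

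These counts depended on single libraries. Without day 19 replicate 1, 35 rows were called at day 16 against day 6 (background 20.4%), 116 at day 19 against day 6 (54.2%) and 102 at day 19 against day 16 (44.7%). Without day 16 replicate 1 the counts were 9 (background 4.71%), 35 (18.7%) and 0 (0.00%). Leaving out day 6 replicate 1, 2 or 3 gave 11, 10 and 8 called rows at day 16 against day 6 (backgrounds 5.07%, 4.84% and 4.05%) and 25, 26 and 21 at day 19 against day 6 (13.5%, 12.8% and 11.8%). At day 19 against day 16 it gave 0 each time (0.0978%, 0.0365% and 0.00%), as did leaving out replicate 2 or 3 of day 16 or day 19.

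LOC102168412, the eIF4E-like row at rank 10, is a transcribed pseudogene in ARS1.2. It stood at 8.45, 6.38 and 10.04 CPM at day 6, at 292, 568 and 186 at day 16, and at 746, 284 and 237 at day 19. Every later library lay above every day 6 library, and days 16 and 19 overlapped. The log2 change was 5.39 ± 0.60 (SE) at day 16 against day 6, a 41.9-fold rise (adjusted p = 0.000730), and 5.67 ± 0.61 at day 19 against day 6, 50.9-fold (adjusted p = 0.000406). Over the other fits and library sets run, the day 19 change was 4.96 to 5.96. In ARS1.2 this row lies between IFIT5 and IFIT3, antiviral genes that interferon induces, and overlaps the protein-coding LOC102168687.

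Those neighbours were also higher at the later days. IFIT3 rose 32.0-fold at day 16 against day 6 (edgeR, adjusted p = 0.000244) and 66.8-fold at day 19. The overlapping LOC102168687 rose 45.9-fold (adjusted p = 0.00654), from 9.88 to 17.6 CPM at day 6 to 325 to 928 at day 16. IFIT5 rose 4.86-fold at day 19 against day 6 (adjusted p = 0.00894), and its 3.19-fold difference at day 16 did not pass (adjusted p = 0.0541). At day 19 IFIT5 stood at 698, 251 and 211 CPM. Without day 19 replicate 1 its log2 change against day 6 was 1.55 (edgeR, adjusted p = 0.00178), beside 2.28 with it. Whether the counting used strand is not given, so reads of LOC102168412 and of the gene it overlaps cannot be told apart. Of a list of 30 interferon-stimulated genes, 27 had rows. Of these, 25 rose at day 16 and 27 at day 19 against day 6 (5.12% and 12.7% of all genes). Their sum lay between 681 and 859.8 CPM on day 6, between 6769.8 and 17699.7 on day 16, and between 17732 and 25239 on day 19.

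Within the 7 class I, interferon-induced or complement rows, 4 rose at day 16 and 5 at day 19 against day 6 (5.12% and 12.7% of all genes). In edgeR, in DESeq2 or at an unadjusted p under 0.05, 0 fell. Their summed level was 93.4, 65.6 and 48.9 CPM at day 6, 221, 336 and 116 at day 16, and 618, 567 and 553 at day 19, with no overlap between any 2 days. The median log2 change was 2.62 at day 16 and 3.49 at day 19 against day 6, or 2.57 at day 19 without day 19 replicate 1. Without day 6 replicate 3 only 2 of the 7 were called at day 16 (4.05% of all genes).

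The largest fold of these at day 19 against day 6 was that of LOC106501852, a pseudogene of complement C4, the complement protein cleaved early in the classical and lectin pathways. Its values were 6.31, 2.99 and 4.19 CPM at day 6, 25.2, 46.9 and 11.5 at day 16, and 134, 93.2 and 106 at day 19, so that the 3 days did not overlap. It rose 6.15-fold at day 16 (edgeR, adjusted p = 0.00980, and 0.0529 without day 6 replicate 3) and 24.6-fold at day 19 against day 6 (adjusted p = 0.000487). The 3.99-fold difference between days 19 and 16 did not pass (adjusted p = 0.0615), and did without day 19 replicate 1 (0.0173).

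LOC102188547, a pseudogene similar to IFITM3, which restricts virus entry, stood at 2.13, 0.824 and 1.85 CPM at day 6, at 16.5, 22.9 and 7.48 at day 16, and at 27.7, 24.96 and 27.7 at day 19. It rose 9.61-fold at day 16 (edgeR, adjusted p = 0.00235) and 16.5-fold at day 19 against day 6 (adjusted p = 0.000548). LOC102181828, a pseudogene similar to GBP1, a guanylate-binding protein of interferon responses, stood at 1.27 to 2.16 CPM at day 6, 18.03 to 32.9 at day 16, and 42.4, 12.1 and 8.57 at day 19. It rose 13.2-fold at day 16 (adjusted p = 0.00579) and 11.3-fold at day 19 against day 6 (log2 2.46 to 3.87 over the other fits and library sets run). Its neighbours in ARS1.2, the coding LOC102170144 and GBP6, rose 12.2-fold and 9.29-fold at day 16 against day 6.

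The other members of this group were chosen for mention after their values were seen. LOC102175497, similar to the very large interferon-induced GTPase GVIN1, was at 8.77 to 17.0 CPM at day 6 and 22.3 to 79.5 at day 16, and rose 4.61-fold (edgeR, adjusted p = 0.0321). The remaining 3 rows were described as similar to a bovine class I histocompatibility chain, which presents peptides to T cells. LOC102184677 was at 21.6 to 44.3 CPM at day 6, 26.7 to 76.9 at day 16 and 105, 333 and 258 at day 19, a 7.70-fold rise at day 19 against day 6 (adjusted p = 0.00450). LOC102170045, at 9.78 to 29.1 CPM at day 6, 9.02 to 71.6 on day 16 and 70.6 to 160 on day 19, rose 7.15-fold over the same days (adjusted p = 0.0237). LOC102184958 was uneven within each day, from 0 to 8.34 CPM at day 6, 0.421 to 39.8 on day 16 and 2.86 to 90.6 on day 19, and was not called. ARS1.2 lists the first 2 as protein-coding genes and the last as a pseudogene, and class I genes are close relatives whose reads can be shared.

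Among the 77 uncharacterized rows, 8 rose and 1 fell at day 16 against day 6 (5.12% and 3.74% of all genes), 18 rose and 2 fell at day 19 against day 6 (12.7% and 10.2%), and 2 rose at day 19 against day 16 (0.516%). Their median log2 changes in these comparisons were 0.20, 0.59 and 0.36, in the same order. ARS1.2 lists 55 of the 77 as lncRNAs, 3 as protein-coding and 2 as pseudogenes, and 17 were not found there. At day 16 against day 6, 4 to 7 were called with any one library other than day 19 replicate 1 left out (4.05% to 8.48% of all genes). The count was 4 without day 16 replicate 1 or without day 6 replicate 3 (4.71% and 4.05%). At day 19 against day 6 it was 11 without day 6 replicate 3 (11.8%). Without day 19 replicate 1 the counts at day 16 against day 6, day 19 against day 6 and day 19 against day 16 were 22, 54 and 48 (20.4%, 54.2% and 44.7% of all genes).

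The most counted of all, the lncRNA LOC102168701, stood at 947, 1318 and 988 CPM at day 6, 1192, 1454 and 1131 at day 16, and 878, 3929 and 3375 at day 19. Replicates 2 and 3 of day 19 lay far above the other 7 libraries, and replicate 1 of that day was the lowest of all 9. The 2.52-fold difference between days 19 and 6 did not pass (edgeR, log2 1.33 ± 0.47 SE, adjusted p = 0.0681). Without day 19 replicate 1 the log2 change was 1.76 (adjusted p = 8.35e-05). In ARS1.2 the row lies between ZC3H10 and PA2G4, neither of which was called. Without day 19 replicate 1 PA2G4 was also higher at day 19 than at day 6 (log2 0.58, adjusted p = 0.00278).

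LOC102168611, at rank 4, stood at 480, 409 and 335 CPM at day 6, 681, 1157 and 839 at day 16, and 1265, 652 and 748 at day 19. Each later library was above each day 6 library. It rose 2.18-fold at day 19 against day 6 (edgeR, log2 1.12 ± 0.31 SE, adjusted p = 0.0307), while the 2.19-fold difference at day 16 had an adjusted p of 0.0564, which fell to 0.00615 with DESeq2, 0.00141 with limma voom, 0.0105 with only the 6 libraries compared and 0.00567 without day 19 replicate 1. The day 19 call was lost without any one of the 3 day 6 libraries (adjusted p of 0.0626, 0.0926 and 0.121 without replicates 1, 2 and 3), without day 16 replicate 3 (0.0516), and with only the 6 libraries compared (0.0610).

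LOC102169084, at rank 8, went the other way, from 351 to 479 CPM at day 6 to 265 to 364 at day 16 and 335, 144 and 160 at day 19. Its log2 change at day 19 against day 6 was -0.98 ± 0.33 (SE; edgeR, adjusted p = 0.0567), and -1.45 without day 19 replicate 1 (adjusted p = 0.000241). LOC106503411, at rank 11, was at 214 to 276, 246 to 314 and 124 to 239 CPM on the 3 days, and no comparison passed. Without day 19 replicate 1 it was lower at day 19 than at day 16 (log2 -0.95, adjusted p = 0.00253). In all of these abundant uncharacterized rows, the day 19 value of replicate 1 lay nearer to the earlier days than those of replicates 2 and 3, except in LOC102168611.

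LOC102173205, an lncRNA, was nearly absent at day 6. It had 1 count in the 3 day 6 libraries together, then 31.9, 13.1 and 15.0 CPM at day 16 and 30.3, 37.7 and 29.7 at day 19. The ratio of pooled counts was 611 at day 16 against day 6 (95% interval 109 to 24187, counting error only) and 1003 at day 19 (180 to 39654). The test gave adjusted p-values of 0.000174 and 7.67e-05 (edgeR). Its neighbour in ARS1.2, RAD21L1, a cohesin subunit known from meiosis, had 1 count at day 6, 54 at day 16 and 138 at day 19, a ratio of 56.5 (9.72 to 2274) at day 16.

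LOC106502542, an lncRNA at rank 171, had 0 counts at day 6 and was at 1.69, 0.228 and 0.0902 CPM at day 16 and 116, 11.7 and 2.12 at day 19. Day 19 replicate 1 held 88.4% of all its counts. With a floor of 3 counts over the day 6 libraries, day 19 was at least 458-fold higher, and at least 72.1-fold without that library. Outside that library it had 0, 19 and 137 counts on days 6, 16 and 19, far below the 1125 of the last rank. The row is thus among the 200, and among the 31 called higher at day 19 against day 6, only through the library where it is high. Its fold and its call are given as a description only. The call at day 19 against day 6 (edgeR, adjusted p = 0.0181) was lost without day 6 replicate 1 (0.0513) or replicate 3 (0.0528).

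LOC102179411, an lncRNA beside HEATR6 in ARS1.2, was at 16.1, 15.7 and 7.99 CPM at day 6, 82.4, 89.3 and 31.1 at day 16, and 93.8, 122 and 190 at day 19, rising 5.10-fold and 10.2-fold against day 6 (edgeR, adjusted p = 0.0114 and 0.00135). LOC102186545, an lncRNA between SRRM2 and FLYWCH2, was at 0.975 to 4.08, 7.84 to 12.01 and 21.6 to 29.7 CPM on the 3 days, with no overlap between any 2 of them, and rose 3.59-fold and 9.08-fold against day 6. LOC102168346, an lncRNA beside NFIB, varied little within days 6 and 16. It was at 7.15, 7.41 and 7.31 CPM at day 6, 19.1, 17.997 and 20.1 at day 16, and 24.3, 16.7 and 17.2 at day 19, a 2.61-fold rise at day 16 (adjusted p = 0.00332) and 2.66-fold at day 19 against day 6. LOC102186545 and LOC102168346 were chosen for mention after their values were seen.

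Both rows that rose between days 16 and 19 were uncharacterized. LOC102189880, an lncRNA beside ZNFX1 in ARS1.2, stood at 91.2, 120 and 127 CPM at day 6, 104, 77.5 and 93.0 at day 16, and 211, 310 and 247 at day 19, and rose 2.80-fold from day 16 to day 19 (edgeR, adjusted p = 0.0377). Its neighbour ZNFX1, an interferon-induced RNA helicase-like gene, had risen 9.55-fold already at day 16 against day 6 (adjusted p = 0.00524), when LOC102189880 had not (log2 -0.30 ± 0.21 SE). LOC106502482 was at 19.03 to 19.99 CPM at day 6, 10.6 to 14.97 on day 16 and 22.6 to 40.3 on day 19, and rose 2.47-fold from day 16 to day 19 (adjusted p = 0.0468). Neither call held when any one library other than day 19 replicate 1 was left out, with adjusted p of 0.0609 to 0.170 for LOC102189880 and 0.0797 to 0.175 for LOC106502482.

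**Figure D3:**
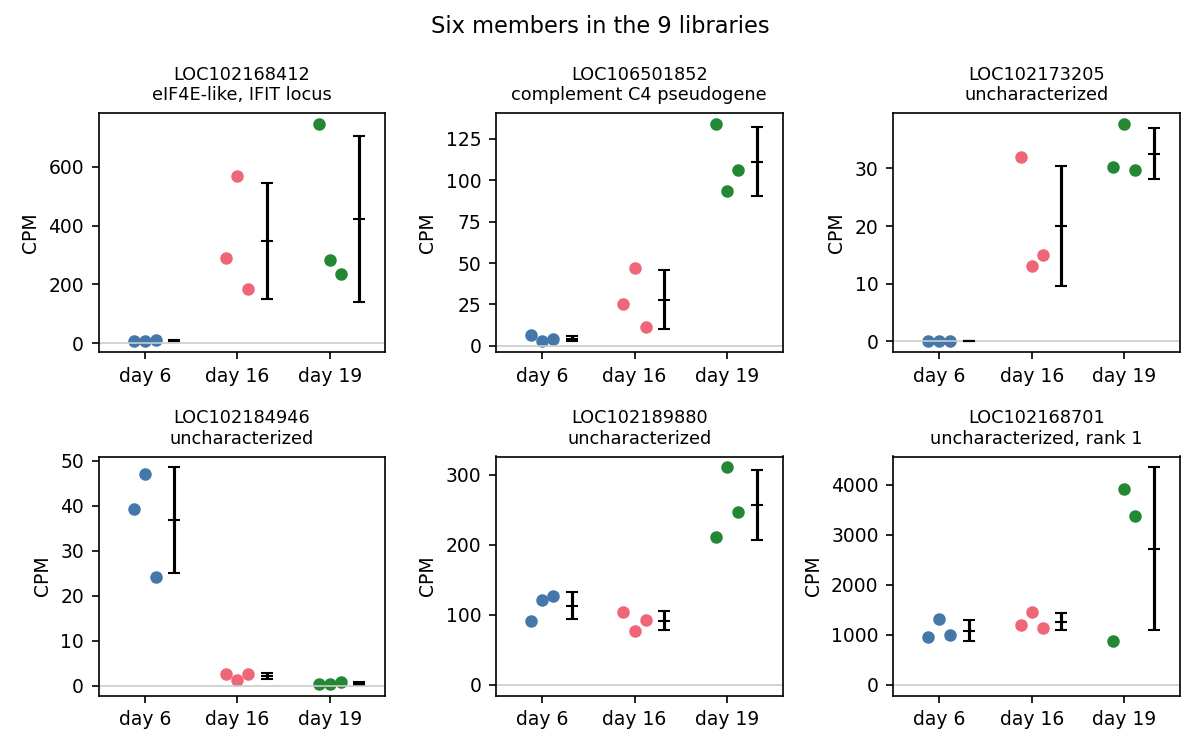
CPM of 6 of the 200 rows in each library, with points for the 3 replicates of a day in order and a bar for the mean ± SD. LOC102173205 and the C4 pseudogene LOC106501852 are lowest at day 6, LOC102184946 is highest there, and LOC102168701 at day 19 has replicate 1 at 878 CPM below 3929 and 3375.

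The largest fall was that of LOC102184946, an lncRNA beside OPA1 in ARS1.2. It stood at 39.3, 47.2 and 24.1 CPM at day 6, 2.63, 1.25 and 2.52 at day 16, and 0.291, 0.299 and 0.741 at day 19, so that the days did not overlap. The log2 change was -4.09 ± 0.41 (SE) at day 16 (edgeR, adjusted p = 0.000427) and -6.35 ± 0.48 at day 19 against day 6 (adjusted p = 8.85e-05), and -2.26 ± 0.50 between days 16 and 19 (adjusted p = 0.0591). OPA1, which encodes a GTPase of mitochondrial fusion, stood at 38.8, 33.8 and 38.4 CPM on average on the 3 days.

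The other row that fell at day 16 was LOC102191531, a pseudogene of the nuclear RNA-binding protein NONO. It was at 25.7, 25.2 and 28.7 CPM at day 6, 17.6, 14.1 and 14.5 at day 16, and 11.8, 8.29 and 10.6 at day 19. It fell at day 19 against day 6 (log2 -1.38 ± 0.20 SE; edgeR, adjusted p = 0.00175). Its call at day 16 (log2 -0.78 ± 0.20, adjusted p = 0.0397) was lost without any one of the 6 libraries of days 6 and 16 (0.0741 to 0.163).

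Of the 10 rows that fell at day 19 against day 6, 8 were protein-like or pseudogene rows. LOC102175391, a copy of the translation factor gene EIF4B, was at 37.0, 40.2 and 44.8 CPM at day 6, and 21.2, 21.1 and 19.3 at day 19 (log2 -0.99 ± 0.17 SE; edgeR, adjusted p = 0.00421). LOC102173351 and LOC102180495, copies of the elongation factor gene EEF1A1, fell by 1.31 and 0.91 on the log2 scale (adjusted p = 0.0245 and 0.00999). The first of these calls was lost without any one of the day 6 libraries (0.0561 to 0.0838) or day 19 replicate 2 or 3 (0.0798 each), and the other without day 6 replicate 3 (0.0534).

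LOC102175147, a pseudogene of the RNA methyltransferase gene FTSJ1, stood at 63.4, 69.2 and 55.4 CPM at day 6 and at 36.5, 7.29 and 9.41 at day 19 (log2 -1.82 ± 0.51 SE; edgeR, adjusted p = 0.0315). LOC106502624, a pseudogene of the transcriptional corepressor gene NAB1, stood at 22.8, 15.1 and 11.7 CPM at day 6 and at 9.42, 2.90 and 1.48 at day 19 (log2 -1.84 ± 0.57, adjusted p = 0.0449). In both, day 19 replicate 1 was the highest of its day. Both calls were lost when any library other than day 19 replicate 1 was left out, with adjusted p of 0.0501 to 0.0916 and 0.0648 to 0.138. The uncharacterized LOC106503751 fell by 0.92 on the log2 scale (adjusted p = 0.0204, and 0.0601 and 0.0800 without day 6 replicates 2 and 3).

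LOC102183480 was a row with a large rise that shares its place with a coding gene. Described as similar to BEX3, it overlaps SLC2A1, the glucose transporter gene, in ARS1.2. It stood at 0.650, 0.309 and 1.17 CPM at day 6, 42.7, 38.6 and 20.2 at day 16, and 8.74, 46.4 and 13.5 at day 19. It rose 46.6-fold at day 16 (edgeR, adjusted p = 0.00223) and 31.6-fold at day 19 against day 6 (adjusted p = 0.00208). SLC2A1 itself rose 6.43-fold at day 16 (adjusted p = 0.000568), from 61.0 to 66.0 CPM at day 6 to 286 to 490, and 3.96-fold at day 19. The next coding gene on the other side, LOC102183203, had 0 counts at day 6 and was also called higher at both later days.

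The 18 immunoglobulin rows varied widely between libraries of 1 day. Their summed level was 3297, 913 and 85.1 CPM at day 6, 30079, 2794 and 3042 at day 16, and 350.5, 1973 and 955 at day 19. Day 16 replicate 1 exceeded every other library, and the day 6 libraries reached both below and above the other 5. The coefficient of variation within a day had a median over the 18 rows of 1.07 at day 6, 1.30 at day 16 and 0.650 at day 19, beside 0.136, 0.156 and 0.331 over all genes tested.

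Day 16 replicate 1 was the highest of the 9 libraries for 17 of the 18 rows, at a median of 10.02 times the mean of the other 2 libraries of its day. The ratio reached 83.0 for LOC102176684 and 71.9 for LOC106504029, both lambda variable segments. In the exception, the lambda variable segment LOC102186478, it was 0.404, and day 6 replicate 1 was highest at 328 CPM. At day 6, replicate 1 was the highest of its day for 15 rows and replicate 3 the lowest for 17. At day 19, replicate 2 was the highest for 15 and replicate 1 the lowest for 14. In 14 of the 18 rows, over 50% of the counts lay in 1 library. The sums that chose the rows include day 16 replicate 1, so its lead in them can be partly set by that choice and is given as a description.

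Genes of antibody-secreting cells were also high in day 16 replicate 1. Of the 8 listed B and plasma cell markers, all had counts and 7 were highest in day 16 replicate 1. Their sum was 316 CPM there, and 17.9 to 53.3 CPM in the other libraries. JCHAIN, which joins polymeric IgA and IgM, was at 210 CPM there against 2.73 to 32.2 elsewhere, and MZB1, a chaperone of antibody secretion, at 52.4 against 0.390 to 7.57. The marker sum was 38.1, 28.9 and 17.9 CPM at day 6, in the order of the immunoglobulin rows. At day 19 it was 32.2, 35.7 and 23.8 CPM, lowest in replicate 3, while the immunoglobulin rows were lowest in replicate 1. The part of B or plasma cell content in the immunoglobulin values was not tested.

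**Figure D4:**
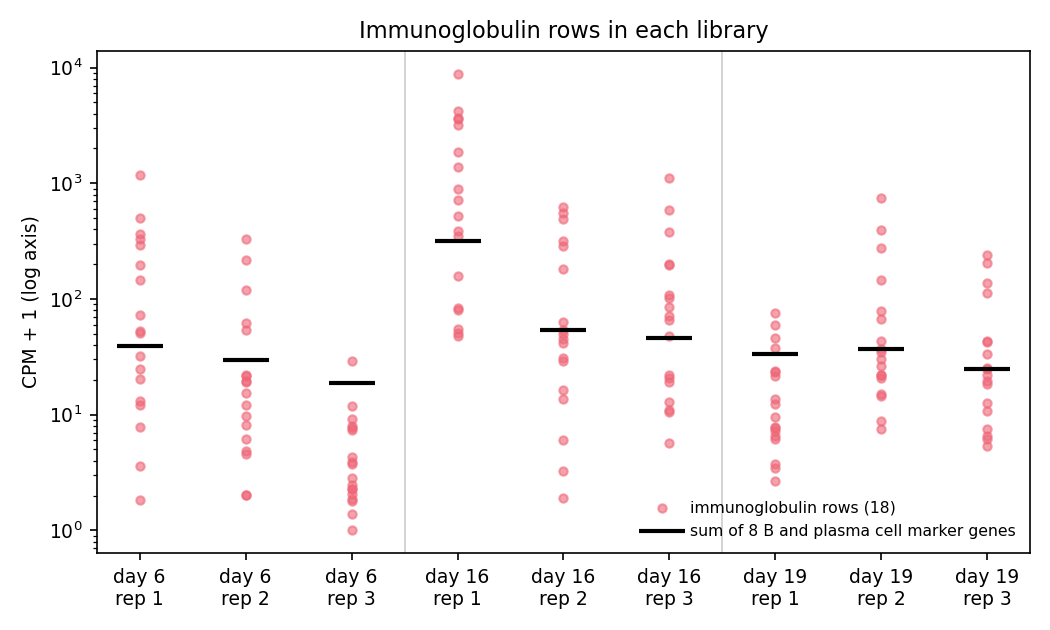
Points give CPM + 1 (log axis) of the 18 immunoglobulin rows in each library, and black bars the summed CPM + 1 of 8 B and plasma cell markers. Day 16 replicate 1 has the highest points and the highest bar, at 316 CPM before 1 is added, and day 6 replicate 3 the lowest bar at 17.9.

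In the comparisons, all 18 immunoglobulin rows had a positive log2 change at day 16 against day 6, with a median of 3.35. Of these, 2 were called by edgeR, 5 by DESeq2 and 10 by limma voom (8.86%, 12.4% and 23.7% of all genes). In edgeR, 11 had an unadjusted p under 0.05. DESeq2 gave no adjusted p for some of the 18, such as LOC102172893 and LOC102168903, so these could not be called by it. The sums that chose the rows include day 16 replicate 1, so the rise at day 16 can be partly set by that choice. Without day 16 replicate 1 the median was 1.15 with 17 positive, and 0 were called (4.71% of all genes). Without day 6 replicate 2 or 3, 0 were called as well (4.84% and 4.05%). At day 19 against day 16 the median was -3.34, or -1.32 without day 16 replicate 1. There 0 were called by edgeR (1.20% of all genes), where 13 were lower at an unadjusted p under 0.05, and DESeq2 called 3 (10.1%). At day 19 against day 6 the median was -0.08, and 1 was called (22.9%). That count became 0 without any one of the day 6 libraries or day 19 replicate 3 (11.8% to 15.4%). It became 2 without day 16 replicate 2 (18.9%). Immunoglobulin segments are near-identical families, so counts of single segments are uncertain.

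The 5 heavy chain constant rows name the antibody classes. Gamma-1 (LOC102171783), the IgG1 heavy chain, was the largest, at 1184, 332 and 28.2 CPM at day 6, 8879, 625 and 1111 at day 16, and 75.0, 742 and 237 at day 19, and was not called. It made 43.6% to 81.7% of the counts of the 5 rows, gamma-2 (LOC102185461) 13.6% to 39.7%, gamma-3 (LOC102168903) 2.73% to 9.19%, alpha-2 (LOC102170970) 0.397% to 13.2% and mu (LOC102191415) 0.348% to 15.1%. In ARS1.2 the gamma-2 row overlaps the gamma-3 and mu rows, so that reads among these rows may not be told apart. The alpha and mu shares were highest in the libraries with the fewest heavy chain counts, day 6 replicate 3 with 476 and day 19 replicate 1 with 1770. In day 16 replicate 1, with 128590, the alpha share was 0.397% (exact 95% interval 0.363% to 0.432%) and the mu share 0.348% (0.317% to 0.382%); these intervals cover counting error only.

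Both calls at day 16 against day 6 were of rows with modest counts. The alpha-2 constant row stood at 6.87, 3.81 and 3.31 CPM at day 6, 53.7, 44.4 and 9.47 at day 16, and 22.6, 13.4 and 24.0 at day 19, so that every later library was above every day 6 library. LOC102170970 rose 7.64-fold at day 16 (edgeR, adjusted p = 0.0150) and 4.27-fold at day 19 against day 6 (adjusted p = 0.0303). Leaving out replicate 2 or 3 of day 6 ended the call at day 16 (0.0713 and 0.0769), as did leaving out replicate 1 or 2 of day 16 (0.0578 and 0.0537). The other called row, the kappa variable segment LOC106502623, was at 0.835, 1.03 and 0 CPM at day 6 and 82.9, 0.911 and 18.3 at day 16, so that the groups overlapped. Its 53.9-fold difference (adjusted p = 0.0358) was lost without any one of 7 libraries, with adjusted p of 0.0501 to 0.127, among them 0.126 without day 16 replicate 1.

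Light chain rows were mostly of the lambda type. The lambda constant row LOC102174837 and LOC102176353, similar to the lambda-like surrogate chain gene IGLL1, together made 16.3% to 34.1% of the immunoglobulin counts of a library, and the 2 kappa variable rows 0.489% to 9.51%. LOC102176353 stood at 503, 215 and 10.9 CPM at day 6, 4191, 548 and 584 at day 16, and 58.5, 396 and 205 at day 19. The 6 lambda variable rows made 6.34% to 17.3%, and their leading row differed between libraries. In day 16 replicate 1, LOC102176684 held 61.0% of the lambda variable counts, whereas LOC102186478 led with 68.9% in replicate 2 and 42.2% in replicate 3. In ARS1.2 LOC102176353 spans LOC102186478 and LOC102172893, so that reads within these 3 rows may not be told apart.

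In the 46 ribosomal protein rows, 1 library of day 19 lay apart. Their summed level was 2337, 2788 and 2554 CPM at day 6, 2717, 2482 and 2517 at day 16, and 1628, 4775 and 4167 at day 19. Days 6 and 16 overlapped, and at day 19 replicate 1 was the lowest of all 9 libraries while replicates 2 and 3 were the highest. On log2 CPM, day 19 replicate 1 minus the mean of replicates 2 and 3 had a median of -1.18 over the 46 rows and was below 0 in 45, beside a median of 0.00 over all genes tested.

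The named ribosomal protein genes did the same. The 46 rows were described after 33 genes, of which 30 have a row of their own symbol, and 39 of the 46 could be paired with one. In those 30 genes, the difference between day 19 replicate 1 and the other 2 had a median of -1.48 and was below 0 in all 30. The exception among the unnamed rows was LOC102181830, a copy of RPS20. These rows were chosen for mention after their values were seen.

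**Figure D5:**
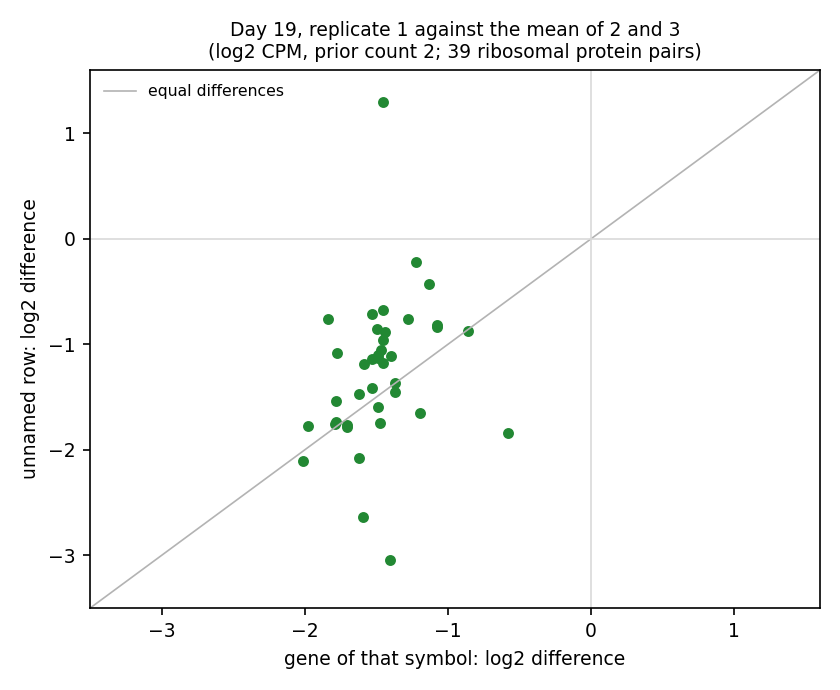
Each point is one of 39 ribosomal protein rows paired with the gene of the same name, and both axes give log2 CPM of day 19 replicate 1 minus the mean of replicates 2 and 3. All points lie left of 0 on the horizontal axis and all but 1, LOC102181830, lie below 0 on the vertical axis.

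Within a pair, the unnamed row held a median of 10.1% of the pair's counts, from 1.01% to 65.0%. In 2 pairs the unnamed row had more counts than the gene it is named after. These were LOC102178018, with 14785 counts against 7953 for RPS23, and LOC102187701, with 3829 against 3684 for RPS15. For LOC102178018 the share lay between 57.8% and 73.0% in the 9 libraries. For LOC102187701 it ran from 28.3% to 73.0%, so that its larger count holds for the pooled sum and not in every library. Reads of near-identical copies can be assigned to either row, so these shares describe the counting as much as the transcripts.

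Of the 46 ribosomal protein rows, 0 were called by edgeR or DESeq2 at day 16 against day 6 (8.86% and 12.4% of all genes). In edgeR, 1 had an unadjusted p under 0.05 there. At day 19 against day 16, edgeR called 0 (1.20%), with 5 at an unadjusted p under 0.05, and DESeq2 called 2 (10.1%). At day 19 against day 6, 2 rose (12.7% of all genes): LOC102169147, a copy of RPS24, 5.49-fold (adjusted p = 0.00620), and LOC102176674, a copy of RPL28, 2.41-fold (adjusted p = 0.0356) with overlapping groups. Leaving out any one library other than day 19 replicate 1 left 1 of the 2 (11.8% to 19.1% of all genes). Both were chosen for mention after their values were seen. LOC102178712, the RPL32 copy at rank 12, stood at 160 to 200.995 CPM at day 6 and at 104, 484 and 407 at day 19, and was not called (adjusted p = 0.154). It was called without day 19 replicate 1 (log2 1.37, adjusted p = 6.54e-05). With that library left out, 22 of the 46 ribosomal protein rows were called at day 19 against day 16 (44.7% of all genes). At day 19 against day 6 it was 25 (54.2% of all genes).

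Of the 51 other protein-like rows, 2 rose and 1 fell at day 16 against day 6 (5.12% and 3.74% of all genes). At day 19 against day 6, 5 rose and 8 fell (12.7% and 10.2%). The median log2 changes were -0.11 and 0.07. The 13 calls at day 19 against day 6 became 5 to 11 when a library other than day 19 replicate 1 was left out (11.8% to 19.1% of all genes). The count was 5 without replicate 1 or 3 of day 6, 6 without day 6 replicate 2 or day 19 replicate 3, and 8 without day 19 replicate 2. Without day 19 replicate 1 it was 31 (54.2% of all genes), and the count at day 16 against day 6 went from 3 to 7 (20.4%). The single T-cell receptor row, the alpha constant segment LOC102182508, was at 11.12 to 16.4 CPM at day 6, 9.74 to 25.2 on day 16 and 17.0 to 20.8 on day 19, and was not called. LOC102182508 was chosen for mention after its values were seen.

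Neighbouring coding genes were compared across the 200 rows. At day 16 against day 6, 13 of the 18 called rows had a tested coding neighbour or overlapping gene in ARS1.2, and in 4 of them such a gene was called in the same direction, with 0 in the opposite one. Of the 182 rows not called, 118 had such a neighbour, and 9 had one called in the direction of the row's own change and 9 in the opposite one. The 4 were LOC102168412 with IFIT3 and LOC102168687, LOC102173205 with RAD21L1, LOC102181828 with LOC102170144 and GBP6, and LOC102183480 with SLC2A1 and LOC102183203. For days 19 and 6, 6 of 28 called rows with a tested neighbour had one called in the same direction and 5 in the opposite one, beside 20 and 16 of 103 rows not called. Overlapping and adjacent genes can share reads, and this was not tested.

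The genes of the whole table whose log2 CPM followed a row most closely over the 9 libraries are given as a description. For LOC102173205 these were LGI2 (Pearson r = 0.99), ISG20 (0.988) and MRPL49 (0.986). For LOC102184946 they were LOC102171438 (0.989), PPM1H (0.988) and ABCD3 (0.987), and for the NONO pseudogene LOC102191531 they were MAP4K2 (0.985), ABCC1 (0.984) and HR (0.979). For LOC106502542, whose counts lie mostly in day 19 replicate 1, they were TMEM41B (0.986), ORC4 (0.972) and MAPRE1 (0.969). For the kappa segment LOC106502623 they were LOC102188510 (0.959), LOC102184912 (0.933) and TIMP2 (0.922). For LOC106503669, which was not called, they were STAC2 (0.972), MED15 (0.941) and ATP6V0D1 (0.939). The 9 points share 3 days and their libraries' depth and composition.

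Only 12 rows of the same type carried a symbol, and all were mitochondrial protein genes, which encode subunits of the respiratory chain and ATP synthase. The 5 most counted were ATP6, at 3873 CPM on average at day 6 and 2257 at day 19, ND4 (3731 and 1201), COX3 (3334 and 1448), CYTB (3274 and 1231) and COX2 (2092 and 1456). In all 5, day 19 replicate 1 was the lowest of its day, as in ATP6 at 981 CPM against 3098 and 2693. ND4, COX3 and CYTB were called lower at day 19 than at day 6, with and without that library. ATP6 and COX2 were not called (edgeR, adjusted p = 0.164 and 0.442). Without that library their log2 changes were -0.41 and -0.08. None of 13 well-known long noncoding RNAs and small nucleolar RNA host genes on a list, such as MALAT1 and NEAT1, had a row under its symbol.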

How the data were processed

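Per gene and library, the authors deposited 1 raw read count (a whole number, not normalized), all in 1 table. Per the labels' protocols, poly(A) RNA was purified and cut with RNase III for Ion Torrent libraries, which favours transcripts with a poly(A) tail. Which aligner, counter, build and annotation were used, and whether strand was, is not given in the sources used here. The rows and gene lists were chosen with earlier results of these data known.

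Library sizes were scaled with TMM and genes filtered with filterByExpr, which left 16098. edgeR 4.0.16 (R 4.3.3) fitted a robust quasi-likelihood model to all 9 libraries with the day as its only term, and p-values were adjusted (Benjamini-Hochberg) over all genes tested. Standard errors (SE) are the absolute log2 change divided by the square root of F. Log2 CPM used a prior count of 2. The fit was also run on simulated counts with a fixed dispersion and no outlying library. That run cannot show how the fit handles a library such as day 19 replicate 1. No 2 libraries of the same day agreed within sampling noise (lowest chi-square per degree of freedom 9.86).

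Rows named are the 12 highest sums, up to 8 called rows per direction and comparison by size of change, ranks 198 to 203, and their neighbours. ARS1.2 gave only names, biotypes and neighbours. Alternatives were DESeq2 1.42.0, limma 3.58.1 voom with quality weights, other scalings, filters and library sets, and a replicate block. Sequences and promoter motifs were not used here.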

Additional observations from a re-analysis of the deposited data

How the results depend on the processing

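No called change of a named row turned its direction under the alternatives run; changes that were not called could change sign, such as that of LOC102168412 at day 19 against day 16 (log2 -0.56 to 0.82). The 18 rows called at day 16 against day 6 became 35 with only the 6 libraries of those days (background 19.8%), 45 with limma voom and quality weights (23.7%) and 30 (16.6%) without both day 16 replicate 1 and day 19 replicate 1 (added after seeing the data), and 8 to 35 with 1 library left out (4.05% to 20.4%). The 2 at day 19 against day 16 became 0 with only the 6 libraries (0.00%), 29 with DESeq2 (10.1%), 103 with voom (45.7%), 93 without both libraries (41.0%), and 0 to 102 with 1 library left out (0.00% to 44.7%). The 41 at day 19 against day 6 became 27 with only the 6 libraries (15.0%), 121 with voom (58.6%), 115 without both (53.9%), and 21 to 116 with 1 library left out (11.8% to 54.2%). The other scalings and filters gave 16 to 18, 2, and 40 to 41. DESeq2 gave 25 and 57 for the other comparisons.

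The replicate numbers share no stated animal or batch, and same-numbered libraries did not deviate together (r of -0.16 to 0.15). With the replicate block, 16, 0 and 37 rows were called at day 16 against day 6, day 19 against day 16 and day 19 against day 6, beside 6.83%, 0.00% and 18% of all genes. With the block LOC102191531 (adjusted p = 0.0690) and LOC106502623 (0.102) were not called at day 16 against day 6, LOC102168611 (0.0557) at day 19 against day 6, and LOC102189880 (0.0852) and LOC106502482 (0.0998) at day 19 against day 16.

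Among the alternative values for single named rows, 1050 kept their side of the threshold, 80 lost a call and 38 gained one. The cause of these changes was not tested. Depth limits rows with few counts at day 6, such as LOC102173205 with 1 count and LOC106502542 with 0.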
